A study of Homo sapiens with 4 samples.

Results

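The 9 genes described here belong to the NRF2 antioxidant pathway and were taken by symbol from the deposited transcript table: NFE2L2, KEAP1, HMOX1, NQO1, GCLM, GCLC, TXNRD1, SRXN1 and PIR. They account for 20 of the 44578 transcripts and 9 of the 23217 gene symbols listed. All RNA came from LV-M100, a low-variability subclone of the breast cancer line MDA-MB-231, collected 48 h after siRNA transfection. Of the 4 libraries, 2 are controls and 2 are knockdowns. The study methods name the NC1 siRNA and the BLOCK-iT Fluorescent Oligo as controls. They name siSNRNP40 #1 and siSNRNP40 #2 as the siRNAs directed against the U5 spliceosomal gene SNRNP40. LV-M100 is a single clone, and the comparison asks how its transcriptome differs when SNRNP40 is depleted. Each transcript has 1 pooled FPKM value per condition (fragments per kilobase of transcript scaled to the number of mapped fragments), so no value has a replicate error, no test was made from these values, and every difference below is a difference between pooled libraries. Log2 fold changes are siSNRNP40 over siControl, without a pseudocount.

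NRF2, the protein made from NFE2L2, is a transcription factor that is normally held in the cytoplasm by KEAP1, an adaptor that brings it to a cullin ubiquitin ligase for destruction. Oxidants and electrophiles modify cysteines of KEAP1, NRF2 then accumulates in the nucleus, pairs with small MAF proteins and binds antioxidant response elements near genes for glutathione synthesis, thioredoxin reduction, quinone detoxification and heme breakdown. Because NRF2 is controlled largely at the level of protein stability, the RNA of NFE2L2 and KEAP1 is not a readout of pathway activity, and target RNAs are commonly used for that purpose.

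The core of an antioxidant response element, TGACNNNGC or GCNNNGTCA on the other strand, was looked up in RefSeq promoter sequences of GRCh38.p14, which span 250 bases before to 50 bases after a gene start. At least 1 match was found in 4687 of 35116 promoters (13.3%). Of the 9 genes, 8 had a promoter in the table and HMOX1 had none. Matches were present for GCLM, KEAP1, TXNRD1 and PIR, in 5 of 11 listed promoters, and the sequences are shown because NRF2 binds elements of this kind. A match is a string of letters and not a known binding site, and elements farther upstream lie outside this window. For each promoter the match nearest to the start is given along the gene, 5′ to 3′, with the core in capitals. For GCLM the match begins 34 bases before the start (chr1:93909440-93909480, minus strand), for KEAP1 31 bases before (chr19:10502778-10502818, minus strand), for the upstream TXNRD1 promoter 8 bases before (chr12:104215755-104215795, plus strand), for the downstream TXNRD1 promoter 102 bases before (chr12:104286914-104286954, plus strand) and for PIR at base 27 after the start (chrX:15493284-15493323, minus strand).
GCLM: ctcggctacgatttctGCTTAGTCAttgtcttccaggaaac
KEAP1: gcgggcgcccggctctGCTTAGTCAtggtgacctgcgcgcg
TXNRD1 upstream: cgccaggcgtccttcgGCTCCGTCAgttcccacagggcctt
TXNRD1 downstream: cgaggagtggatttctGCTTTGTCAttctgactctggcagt
PIR: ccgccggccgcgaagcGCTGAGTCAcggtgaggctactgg

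The match printed for GCLM is the same 9 letters as that for KEAP1. Both TXNRD1 promoters held a match, so a match lies near each listed start of that gene. KEAP1, by contrast, also had a listed promoter without a match (chr19:10503307-10503606, minus strand).

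SNRNP40 itself, listed as 1 transcript on chromosome 1 of hg19, had an FPKM of 40.4 in siControl and 6.12 in siSNRNP40, which was 84.9% lower. Among markers of mesenchymal basal breast cancer cells, VIM, CD44, AXL, CAV1 and MSN had mean FPKM values from 119.8 to 741.6, while SPARC was at 0.229. The luminal markers ESR1, PGR, FOXA1 and CDH1 were each below 0.1, GATA3 was at 1.25, EPCAM at 10.3 and KRT19 at 184.6. The leukocyte marker PTPRC was listed at 0 and CD3E was at 0.058, although LYZ was at 9.35. Total FPKM was 516056 in siControl and 517152 in siSNRNP40.

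The RNA of the pathway's regulator pair differed little between the conditions. NFE2L2, on chromosome 2 of hg19 (178095031 to 178129859), had an FPKM summed over its 3 transcripts of 36.5 in siControl and 36.2 in siSNRNP40 (log2 fold change -0.012). KEAP1, on chromosome 19 (10596796 to 10614054), had 23.2 and 24.3 over its 2 transcripts (0.068). Among 12334 genes with a mean summed FPKM of at least 1, 95.8% differed by at least as much as NFE2L2 in either direction and 77.6% by at least as much as KEAP1.

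The genes for the subunits of glutamate-cysteine ligase were slightly lower in the knockdown libraries. GCLC encodes the catalytic subunit of this rate-limiting enzyme of glutathione synthesis. It had a summed FPKM of 11.0 in siControl and 10.5 in siSNRNP40 (log2 fold change -0.066, or 0.043 with its most expressed transcript alone). GCLM, the modifier subunit, had 31.6 and 29.0 (-0.12). Of all genes, 78.4% differed by at least as much as GCLC and 62.4% by at least as much as GCLM. GSS, glutathione synthetase, was slightly higher, with 106.8 and 110.7 (0.052). GCLC lies on chromosome 6 (53362140 to 53409927) and GCLM on chromosome 1 (94352590 to 94375012). On a per-length scale the RNA of the modifier subunit was thus more abundant than that of the catalytic subunit in both conditions.

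The thioredoxin arm contained the most abundant of the 9 genes. TXNRD1, the cytosolic thioredoxin reductase on chromosome 12 (104609559 to 104744062), had a summed FPKM of 274.8 in siControl and 259.0 in siSNRNP40 (log2 fold change -0.086), at percentile 98.1 of the 12334 genes by mean level. SRXN1, sulfiredoxin, which repairs over-oxidised peroxiredoxins, lies on chromosome 20 (627268 to 633890) and had 34.8 and 39.8 (0.19). SRXN1 was thus higher in the knockdown libraries while TXNRD1 was lower, and 45.1% of all genes differed by at least as much as SRXN1.

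NQO1, the NAD(P)H quinone reductase widely used as an NRF2 readout, lies on chromosome 16 (69743304 to 69760533). Its summed FPKM was 272.1 in siControl and 230.7 in siSNRNP40, 15.2% lower (log2 fold change -0.24), with a mean level at percentile 98.0. In absolute FPKM it had the largest difference of the 9 genes, but 35.8% of all genes differed by at least as much on the log2 scale.

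HMOX1, heme oxygenase 1, which opens the heme ring and releases iron, had the largest log2 difference of the 9 genes. It is listed as 1 transcript on chromosome 22 (35777060 to 35790207), with an FPKM of 8.47 in siControl and 5.95 in siSNRNP40, 29.8% lower (log2 fold change -0.51). It was also the least abundant of the 9, at percentile 39.7. Of all genes, 9.75% differed by at least as much, and of 2165 genes with a mean FPKM of 5 to 10, 4.67% had a log2 fold change below -0.5. HMOX1 was no longer past -0.5 with a pseudocount of 1 (-0.45) or after upper quartile scaling (-0.48).

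PIR encodes pirin, an iron-binding nuclear protein that has been described as a quercetinase, and lies on the X chromosome in a locus listed from 15363713 to 15511711. Its 2 transcripts summed to 10.6 in siControl and 13.1 in siSNRNP40 (log2 fold change 0.31), the largest difference upward among the 9 genes. The same locus holds the read-through gene PIR-FIGF and FIGF (now VEGFD). The FPKM of PIR-FIGF over its 2 rows was 0.053 and 0.229, and FIGF was at 0.067 in siControl and listed at 0 in siSNRNP40. Adding PIR-FIGF to PIR gave a log2 fold change of 0.33, while the most expressed PIR transcript alone took the other sign (-0.86).

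**Figure D1:**
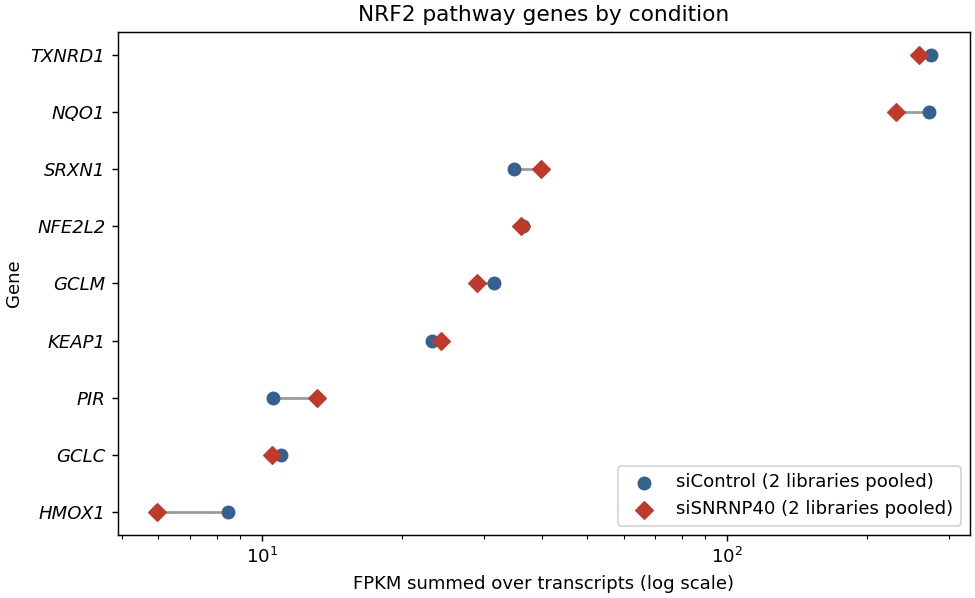
Summed FPKM on a log scale for each of the 9 genes in siControl (blue circles) and siSNRNP40 (red diamonds), each point being 1 pooled value of 2 libraries, without an error. TXNRD1 and NQO1 lie far above the rest, from 230.7 to 274.8, HMOX1 is lowest with 8.47 and 5.95, and only SRXN1, KEAP1 and PIR have the diamond to the right of the circle.

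No gene sum of the 9 passed an absolute log2 fold change of 1 (0 of 9), and 1.47% of all gene sums did so. The study applied an absolute log fold change above 1 to transcripts, not gene sums, to define SNRNP40-dependent ones. Of 18 pathway transcripts, 3 (16.7%) passed a log2 fold change of 1, beside 10.5% of all transcripts, as given below. At the lower size of 0.5, 1 of 9 (HMOX1) was below -0.5 and none was above 0.5, beside 5.06% and 5.24% of all genes. The median log2 fold change of the 9 genes was -0.066 and that of all genes 0.0034. The median absolute log2 fold change was 0.122 for the 9 and 0.170 for all genes. Of the 9 genes, 6 were lower and 3 higher, a split that became 5 lower and 4 higher after upper quartile scaling, where NFE2L2 took the other sign. Among the 7 genes other than NFE2L2 and KEAP1, 5 were lower, with a median of -0.086. The exact share of all genes that were lower was not computed, but their median above 0 means that no more were lower than higher. With the most expressed transcript of each gene, TXNRD1 and GCLC were higher (0.24 and 0.043) and PIR was lower (-0.86). In that setting 5 of the 9 genes were lower and 4 higher. Because all cells of a culture are pooled, fewer cells with pathway RNA and less of that RNA per cell cannot be told apart.

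**Figure D2:**
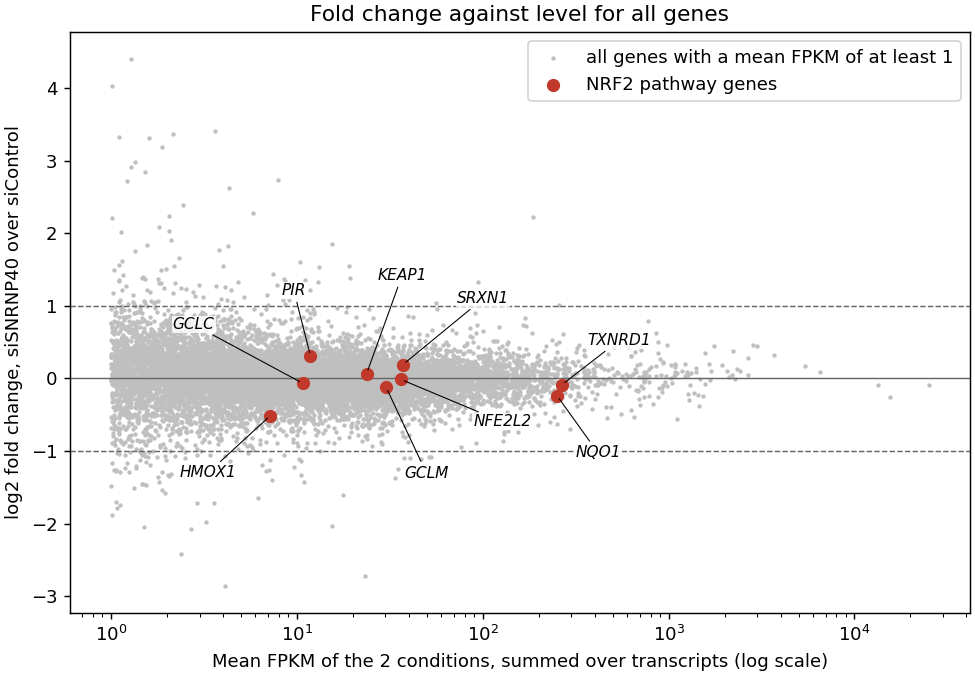
Log2 fold change of summed FPKM against mean FPKM (log scale) for the 12334 genes with a mean of at least 1 (grey) and the 9 NRF2 pathway genes (red), with dashed lines at 1 and -1. All 9 genes lie between the dashed lines, from -0.51 for HMOX1 to 0.31 for PIR, within the band of the grey points.

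Single transcripts differed more than gene sums. The 3 genes HMOX1, GCLM and SRXN1 have 1 listed transcript, and the other 6 genes share 17 rows. The table gives a locus but no exon structure for each row, so the transcripts are given by its identifiers and could not be matched to annotated isoforms. Values of transcripts that overlap in 1 gene depend on how cuffdiff divided shared fragments between them. Of the 20 rows, 19 had a mean FPKM of at least 1 and 18 of these were above 0 in both conditions. Among these 18, 3 (16.7%) passed an absolute log2 fold change of 1, beside 10.5% of 16691 transcripts. All 3 belong to genes with several transcripts, where the share was 3 of 15 (20%) for the pathway genes and 16.9% of 9639 transcripts overall.

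PIR had the most marked redistribution. Transcript 1 (TCONS_00043486) had an FPKM of 9.47 in siControl and 5.23 in siSNRNP40 (log2 fold change -0.86). Transcript 2 (TCONS_00043487) had 1.12 and 7.89 (2.82). In siControl transcript 1 made up 89.4% of the gene's sum and in siSNRNP40 transcript 2 made up 60.1%, so the leading transcript differed between the conditions. A different leading transcript was found for 1 of the 6 genes with several rows, beside 14.8% of 5282 such genes. The share of the PIR sum that lay on the other transcript was 49.6 percentage points, a shift that 5.24% of those genes equalled or exceeded.

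The summed FPKM of TXNRD1 was 5.77% lower, while its 5 transcripts differed in both directions. Transcript 5 (TCONS_00009471) had an FPKM of 54.2 in siControl and 14.3 in siSNRNP40 (log2 fold change -1.92). Transcript 1 (TCONS_00009467) had 8.22 and 3.0 (-1.45). The leading transcript 3 (TCONS_00009469) had 156.7 and 185.3 (0.24), and its share of the gene went from 57.0% to 71.6%. Transcript 5 was thus lower by 39.9 FPKM while transcript 3 was higher by 28.7 FPKM. Transcript 4 (TCONS_00009470) had 6.91 and 12.9 (0.90), and transcript 2 (TCONS_00009468) 48.9 and 43.5 (-0.17). In all, 17.0 percentage points of the TXNRD1 sum were redistributed, a shift reached by 27.0% of genes with several rows.

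The NQO1 transcripts also differed in direction. The leading transcript 1 (TCONS_00015713) had an FPKM of 246.4 in siControl and 192.5 in siSNRNP40 (log2 fold change -0.36). Transcript 3 (TCONS_00015715) had 17.8 and 31.6 (0.83), and transcript 2 (TCONS_00015714) had 7.91 and 6.62 (-0.26). The share of transcript 1 went from 90.6% to 83.5%. The redistribution was 7.13 percentage points, close to the median of 7.66 over the 5282 genes.

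In NFE2L2, transcript 2 (TCONS_00023973) was listed at 0 in siControl and had an FPKM of 2.91 in siSNRNP40, or 8.04% of the gene's sum there. Of 16861 transcripts whose mean FPKM reached 1, 1.01% were listed at 0 in 1 condition. The other NFE2L2 transcripts had 23.2 and 21.1 (transcript 1, log2 fold change -0.14) and 13.3 and 12.2 (transcript 3, -0.13), so the near-equal NFE2L2 sums combine slightly lower values of these 2 with the added transcript 2. In GCLC, transcript 1 (TCONS_00034416) was at 0.799 in siControl and near 0 in siSNRNP40, below the minimum mean FPKM of 1, and transcript 2 (TCONS_00034417) was at 10.2 and 10.5 (0.043). KEAP1 transcripts 1 and 2 had 17.5 and 17.7 (0.011) and 5.69 and 6.68 (0.23), and its redistribution of 2.95 percentage points was the smallest of the 6.

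**Figure D3:**
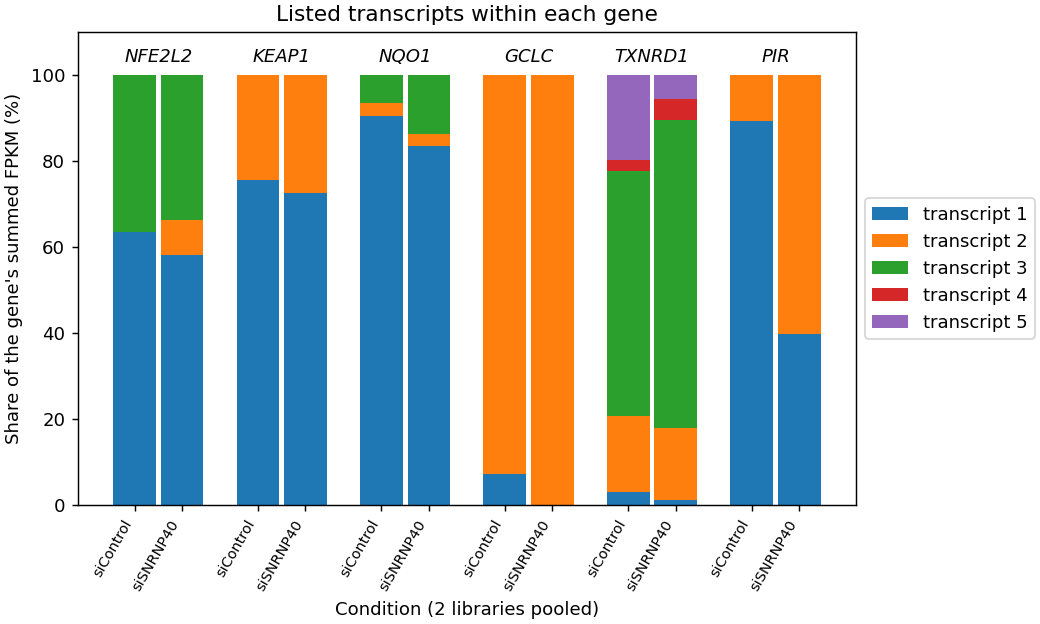
Stacked bars give the share of each listed transcript in the summed FPKM (percent) of the 6 genes with several transcripts, in siControl and siSNRNP40. The leading transcript of PIR differs between the bars, transcript 5 of TXNRD1 takes 19.7% and 5.51%, and the remaining genes have the same leading transcript in both bars.

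**Figure D4:**
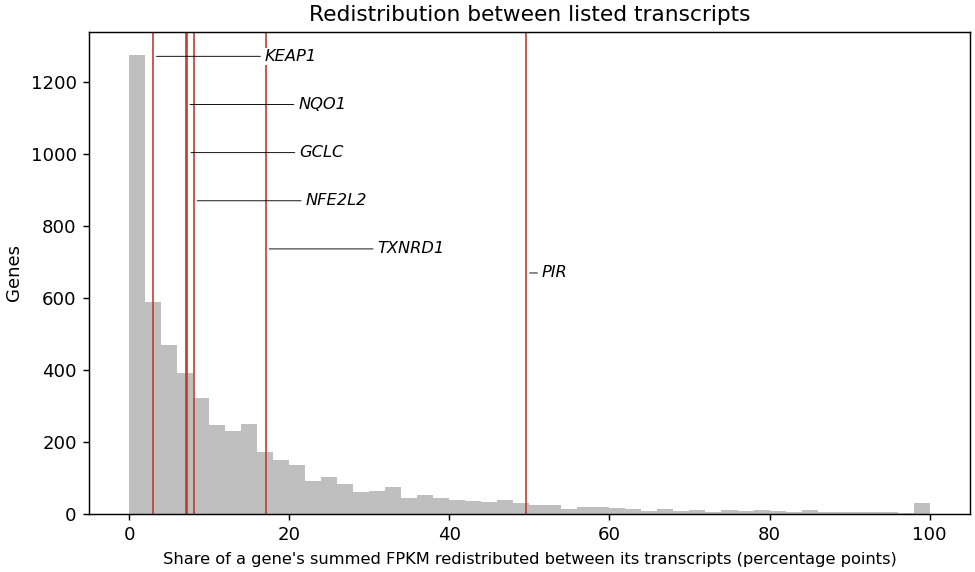
Histogram of the share of a gene's summed FPKM that was redistributed between its transcripts (percentage points) for 5282 genes with several transcripts and a mean FPKM of at least 1, with red lines for the 6 pathway genes. PIR at 49.6 lies in the upper tail, TXNRD1 at 17.0, and the other 4 genes between 2.95 and 8.04 around the median of 7.66.

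Annotated neighbours touch some of these values. In GENCODE release 44 on GRCh37, an unnamed protein-coding gene on the same strand shares 2292 exonic bases with SRXN1. Noncoding genes on the opposite strand share 575 exonic bases with NQO1, 305 with GCLC (GCLC-AS1) and 190 with NFE2L2. Whether strand was used in counting is not given in the sources used here, and the part of these genes in the values was not tested.

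Other antioxidant genes were examined in 7 lists by function, which include the 9 genes. Without the 9, the lists held 99 genes, of which 93 had a mean summed FPKM of at least 1. Of these 93, 44 were higher and 49 lower, 1 was above 0.5 and 5 were below -0.5, beside 5.24% and 5.06% of all genes, and 1 of those 5 was also below -1.

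The NRF2 control list of 15 genes, which includes NFE2L2 itself and NFE2L1, showed no gene sum past 0.5 in either direction. Its median log2 fold change of -0.012 was the value of NFE2L2. In this list 7 genes were higher and 8 lower, or 9 higher and 6 lower after upper quartile scaling. With the most expressed transcript of each gene, 6 were higher and 9 lower, and 1 gene was past 0.5 in each direction. The share of all genes past 0.5 in that setting was not computed. RBX1, the RING subunit of the cullin ligase, was the highest at 0.40 (21.1 and 28.0 FPKM), and CAND1, which exchanges the substrate adaptors of cullin ligases, the lowest at -0.35 (31.5 and 24.7 FPKM).

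In the glutathione list 21 of 24 genes passed the minimum level, with 8 higher and 13 lower (median -0.065). Below -0.5 were SLC7A11, the cystine importer that supplies cysteine for glutathione, with 19.6 and 12.3 FPKM (-0.68), and ABCC3, an exporter of organic anions and conjugates, with 6.56 and 4.28 FPKM (-0.62). No gene sum was above 0.5, and GSTM1, a glutathione transferase whose reads may be shared with close paralogs, was the highest at 0.39 (9.26 and 12.1 FPKM). With the most expressed transcript of each gene, 2 were above 0.5 and 3 below -0.5, again with 8 higher and 13 lower. These counts have no share of all genes beside them, since it was not computed for single leading transcripts.

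The 16 thioredoxin and peroxiredoxin genes had 11 higher and 5 lower values, a median of 0.10, and none past 0.5. TXNRD2, the mitochondrial thioredoxin reductase, was the highest at 0.44 (2.78 and 3.77 FPKM) and PRDX2, a cytosolic peroxiredoxin, the lowest at -0.29 (51.0 and 41.9 FPKM).

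Of the 11 heme and iron genes, HMOX1 alone was past 0.5 and the median was 0.076, with 6 higher and 5 lower. The ferritin genes, chosen here after their values were seen, were the next lowest of the list: FTH1, the heavy chain, had 441.9 and 329.8 FPKM (-0.42) and FTL, the light chain, 1425 and 1165 FPKM (-0.29). Both have many pseudogene copies that can share reads. The largest value upward was that of SLC48A1, a heme transporter, at 0.42 (2.41 and 3.23 FPKM).

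The list named quinone and carbonyl detoxification had 17 of 19 genes above the minimum level, with 7 higher, 10 lower and none past 0.5 (median -0.026). After upper quartile scaling 9 were higher and 8 lower (median 0.0046). With the most expressed transcript of each gene, 4 were higher and 13 lower, 2 of them below -0.5 (median -0.17). No share of all genes below -0.5 was computed for that setting. NQO2, the paralog of NQO1, was the lowest at -0.37 (40.5 and 31.3 FPKM). CYP1B1, a cytochrome P450 that was also placed in this list, was the highest at 0.41 (34.6 and 45.9 FPKM).

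Of 9 genes that supply NADPH, 3 were higher and 6 lower (median -0.068). IDH1, the cytosolic NADP-dependent isocitrate dehydrogenase, was the only one past 0.5, with 48.4 FPKM in siControl and 27.7 in siSNRNP40 (-0.81). The pentose phosphate enzyme TALDO1 was the highest at 0.11 (170.3 and 183.3 FPKM).

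Among 13 of 14 other reactive oxygen enzymes, 5 were higher and 8 lower (median -0.15). SOD2, the mitochondrial superoxide dismutase, had 63.6 FPKM in siControl and 119.2 in siSNRNP40 (0.91), the largest value upward among genes of the lists with a mean FPKM of at least 1, although its most expressed transcript alone gave 0.16. The glutathione peroxidase family members GPX3, a secreted enzyme, and GPX7, an endoplasmic reticulum enzyme, were lower, with 15.9 and 10.3 FPKM (-0.63) and with 1.60 and 0.773 FPKM (-1.05, or -0.55 with a pseudocount of 1). SOD1, the cytosolic superoxide dismutase, named after its values were seen, was at 291.4 and 244.5 FPKM (-0.25), opposite in sign to SOD2.

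**Figure D5:**
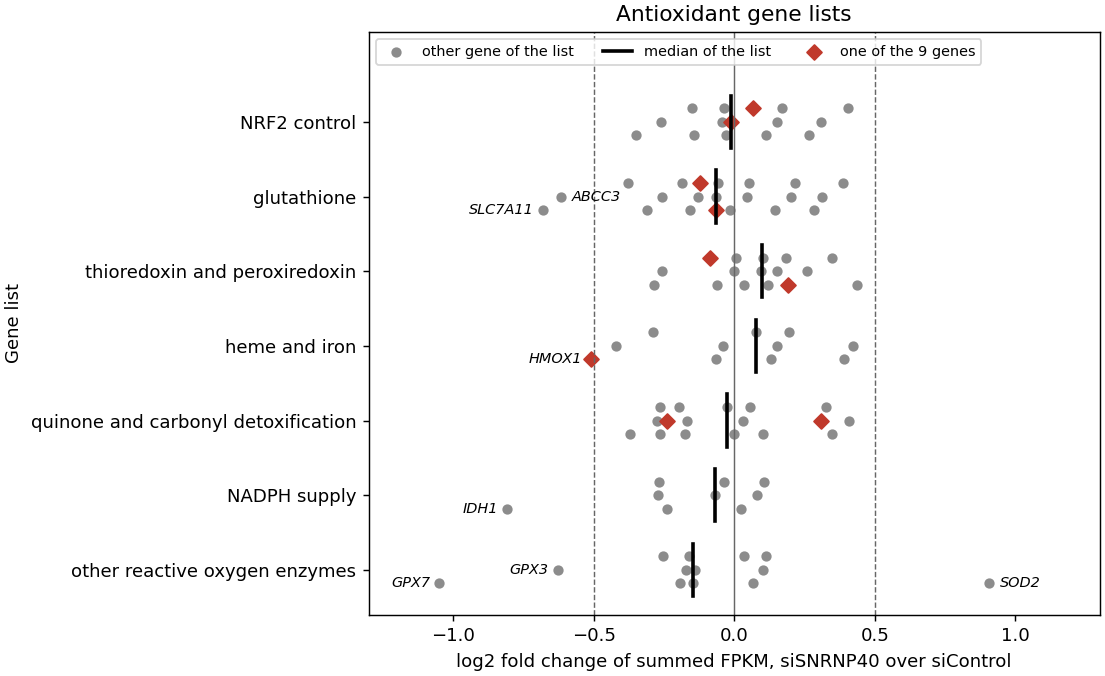
Log2 fold change of summed FPKM for each gene of the 7 lists with a mean FPKM of at least 1, with the 9 NRF2 pathway genes as red diamonds, the median of each list as a black bar and dashed lines at 0.5 and -0.5. List medians run from -0.15 to 0.10, and outside the dashed lines lie SLC7A11, ABCC3, HMOX1, IDH1, GPX3 and GPX7 on the lower side and SOD2 on the upper side.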

How the data were processed

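RNA from LV-M100 cells was depleted of ribosomal RNA and sequenced. Per the labels and methods, the authors used cutadapt 1.2.1 for trimming, TopHat2 2.0.8 for mapping to hg19, Cufflinks and cuffmerge for FPKM-type values consolidated across samples, and cuffdiff 2.0.2. Values in FPKM were deposited as the authors' cuffdiff estimates per transcript, with the 2 libraries of each condition pooled, and depth is unknown. The table's own fold changes, test statistics, p-values and q-values compare the conditions and were not used.

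FPKM was summed over all rows of a gene symbol, and log2 ratios of values above 0 were taken where the mean FPKM was at least 1. With 1 usable value per condition no test was made here. Counts past a fold at the main settings are set beside the share of all features, and counts at alternative settings are not. Redistribution is the summed absolute difference of transcript shares, divided by 2. The genes, lists and naming rule were chosen with earlier results of these data known. Named are the 9 genes with all transcripts, and in each list those past 0.5 or else the highest and lowest. The 1 list symbol not found directly was matched through a RefSeq synonym. Starts of loci are printed 1-based. Alternatives changed the pseudocount, filter, scaling, fold and gene value. The fold and redistribution computations were checked on simulated data. Python 3.11.15, numpy 2.4.6, pandas 2.3.3 and matplotlib 3.10.9 were used.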

Additional observations from a re-analysis of the deposited data

How the results depend on the processing

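No paired analysis was possible because both libraries of a condition are merged into 1 value and no column has a replicate number, and for the same reason no replicate could be left out. A log2 value was counted as moved at 0.1 or more and a count at more than 1.5 times. Of 104 recomputed values, 95 stayed within these limits, 5 moved and 4 took the other sign with a change of at least 0.1. Another 4 took the other sign with a smaller change: NFE2L2 (0.018), the NRF2 control median (0.018) and the quinone and carbonyl median (0.0046) after upper quartile scaling, and the NRF2 control median (0.068) at a mean FPKM of at least 5. With the most expressed transcript in place of the gene sum, the log2 fold change became -0.86 for PIR, 0.24 for TXNRD1, 0.043 for GCLC, -0.14 for NFE2L2 and -0.36 for NQO1, and the median of the quinone and carbonyl list became -0.17. These gene values differ by construction, since the other transcripts of the gene are left out. The median of the heme and iron list was -0.065 at a mean FPKM of at least 5, where fewer genes remain. At a fold threshold of 0.5 on the log2 scale, 1 gene and 7 transcripts of the pathway passed, beside 0 and 3 at a threshold of 1. The share of all transcripts past 0.5 was not computed, so whether 7 is many or few cannot be said. Median centring changed every log2 value by -0.0034 and upper quartile scaling by 0.031. Adding PIR-FIGF to PIR was chosen after the data were seen. Depth is unknown, and what it limits cannot be stated.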

Other observations

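Of the genes in the antioxidant lists, 6 were below a mean summed FPKM of 1. ALDH3A1, an aldehyde dehydrogenase, was at 0.127 FPKM in siControl and 0.590 in siSNRNP40, and SOD3, the extracellular superoxide dismutase, at 0.456 and 0.957. GPX2 and ABCC2 were at 0.341 and 0.313 and at 0.394 and 0.460 FPKM in the same order. GSTA1 and UGT1A6 were listed at 0 in both conditions.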
